A study of Mus musculus with 4 samples.

Results

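The regions described here are 322 windows of 200 kb that replicated later in induced than in non-induced Suv4-20h mutant fibroblasts without replicating clearly later in Suv4-20h KO than in control fibroblasts. They were taken from 11325 autosomal windows of mouse build mm9 that held 5 or more probes, a share of 2.84%. A window was a member when its timing value was lower by at least 0.5 in induced than in non-induced cells, on the log2 scale, and when its KO minus control difference lay above -0.2. Timing was the log2 ratio of early to late S phase signal with the autosomal median of each array set to 0, so higher values mean earlier replication.

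DNA replication follows a programme in which large domains of a chromosome copy their DNA at a characteristic time in S phase. Domains rich in active genes tend to replicate early, and gene-poor domains or domains packed as heterochromatin tend to replicate late. The Suv4-20h enzymes are methyltransferases that add methyl groups to a lysine in the tail of histone H4, a mark known from compacted heterochromatin and linked to the licensing of replication origins.

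The study used mouse embryonic fibroblasts, connective tissue cells grown from embryos, in 4 groups with 1 array each. The induced and the non-induced cells are both labelled as suv4-20h mutant, the KO cells by the deleted floxed SUV4-20H1 allele, and the control cells as control. The protocol given for all samples describes deletion of that allele by 4-hydroxytamoxifen (1 mM, 24 hours) and culture at 3% oxygen, but gives no account of the induction. The labels name the cell line as MEF 362.2 among the sample characteristics and as 364.2 in the growth protocol. They give no driver of a recombinase and no separate cultures. Cells took up BrdU (50 µM, 1 hour), 80000 cells were sorted into early and late fractions, and the precipitated and amplified DNA was hybridised with early DNA in Cy3 and late DNA in Cy5.

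With 1 array in each group, no difference below has a replicate check and none was tested. Standard errors (SE) are over the probes of a window, so they cover scatter between probes and not between cultures. Each array held 174305 genomic spots for 170305 probes. Above background, the median late signal was 222 to 436 and the median early signal 144 to 209. Induced and non-induced cells were on 1 slide and KO and control cells on another, so each of the comparisons lay within a slide. Early DNA carried the same dye throughout. The distance between the percentiles 10 and 90 of window timing was 2.70 in induced, 2.07 in non-induced, 2.32 in KO and 1.81 in control cells, and this unequal spread moves with the differences described here.

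The members were chosen by these same timing values, so their levels are given as a description. Median timing of the 322 windows was -1.62 in induced cells, with percentiles 10 and 90 at -1.99 and -1.07. It was -0.96 in non-induced cells (-1.31 and -0.44), -0.83 in KO cells (-1.27 and -0.0046) and -0.88 in control cells (-1.19 and -0.38). The induced array thus stood apart from the other 3, whose medians lay close to each other. Over all 11325 windows the medians were -0.41, -0.20, -0.32 and -0.13 in induced, non-induced, KO and control cells. The median member window was therefore late on the non-induced, KO and control arrays too.

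**Figure D1:**
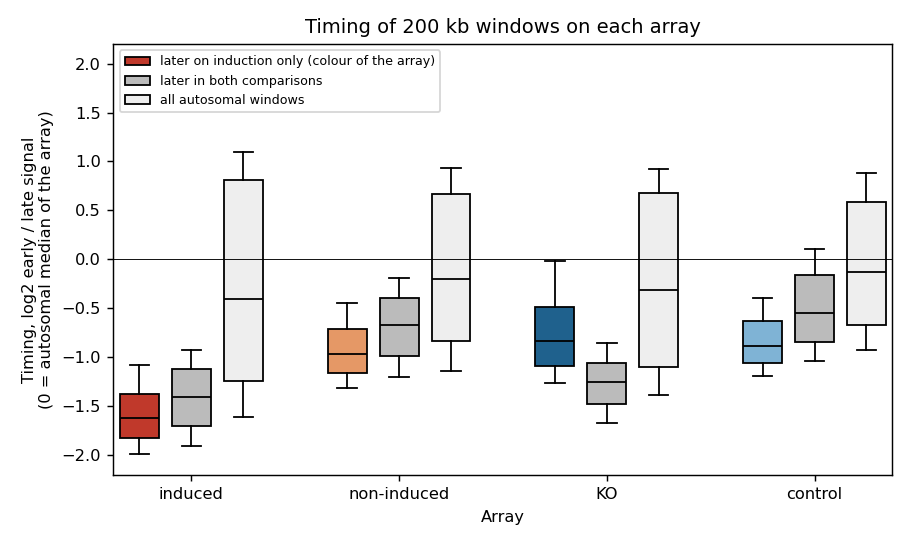
Timing of 200 kb windows (log2 early over late signal, vertical axis) on the induced, non-induced, KO and control arrays, for the 322 member windows, the 1805 windows later in both comparisons and all autosomal windows. Member windows have a median of -1.62 in induced cells, and of -0.96, -0.83 and -0.88 on the other arrays.

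Few of the windows changed from the early to the late side of the median. Timing was below 0 in all 322 windows in induced cells and in 317 (98.4%) in non-induced cells. It was below 0 in 290 windows (90.1%) in KO cells and in 309 (96.0%) in control cells. Over all windows these shares were 56.9%, 55.3%, 56.2% and 55.1% in induced, non-induced, KO and control cells. Non-member windows of like timing had a mean of KO and control timing between -1.22 and -0.27. In them the shares were 94.9%, 93.1%, 99.4% and 92.1%. The KO and control shares there are largely set by that choice, and the KO share was above the 90.1% of members. On the induced and non-induced arrays, high shares below 0 were thus usual for late windows. The 5 windows at or above 0 in non-induced cells lay on chromosomes 2, 3 and 5, with non-induced timing of 0.0099 to 0.22, and were all below 0 in induced cells. Only 1 window was below 0 in KO cells and at or above 0 in control cells, and 20 were at or above 0 in KO cells and below 0 in control cells.

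The latest 10% of all windows on the induced array held 170 members (52.8%), and the latest 10% on the non-induced array held 91 (28.3%). On the KO array it held 17 (5.28%) and on the control array 140 (43.5%). Fewer members were among the latest windows in KO cells than on any other array, and the rule's second condition keeps out windows much later in KO than in control cells. The induced array gave the lowest timing of the 4 arrays in 315 of 322 members (97.8%), against 36.0% of all windows, a count that the rule favours.

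Of all windows, 2127 (18.8%) had an induced minus non-induced difference at or below -0.5, and 77 (0.68%) had one at or above 0.5. Of the windows past 0.5 in either direction, 96.5% were thus lower in induced cells, a share that was 52.5% (913 lower and 826 higher) with each array centred on its median window. It was 72.9% after quantile normalization, 71.7% with the linear trend of the difference on timing removed and 86.9% after loess. In the other comparison, 6186 windows (54.6%) had a KO minus control difference above -0.2 and 5139 (45.4%) one at or below it. The 322 members were 15.1% of the 2127, and the other 1805 windows (15.9% of all windows) were later in both comparisons. The induced minus non-induced difference of members had a median of -0.62 and ran from -1.39 to -0.50. Their KO minus control difference had a median of -0.020 and ran from -0.20 to 1.25. In the windows later in both, the medians were -0.68 and -0.68, and over all windows they were -0.11 and -0.15. Across the slides, the median difference in members was -0.78 between induced and KO cells and -0.092 between non-induced and control cells. Those values share arrays with the rule and cannot be told apart from the slides.

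**Figure D2:**
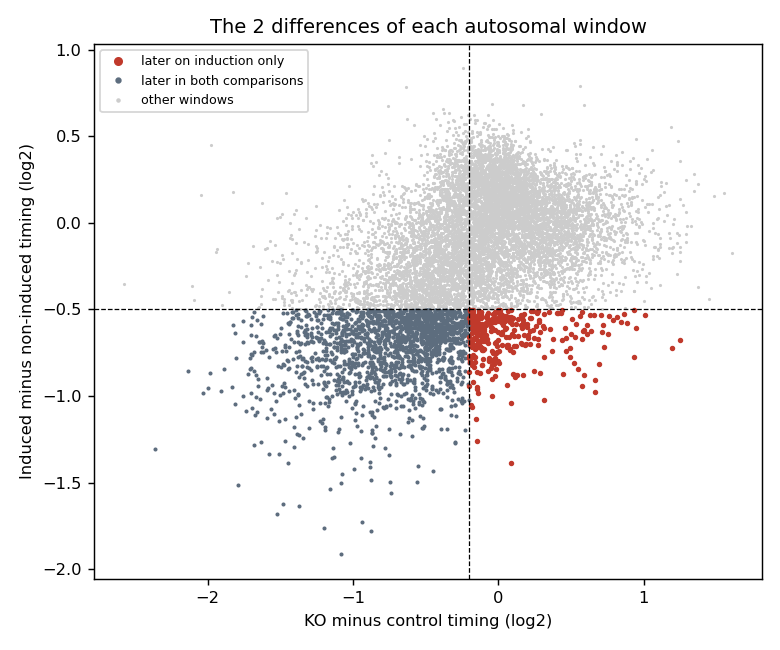
Induced minus non-induced timing (vertical axis, log2) against KO minus control timing (horizontal axis, log2) for each autosomal window, with dashed lines at the thresholds of -0.5 and -0.2. The 322 members lie below the horizontal line and to the right of the vertical one, with 1805 windows later in both to the left.

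Both channels contributed to the difference. Early S phase signal was lower by 0.35 in induced than in non-induced cells in the median member window (log2, each channel centred), and late signal was higher by 0.22. Early signal was lower in 315 members (97.8%) and late signal higher in 291 (90.4%). Over all windows these shares were 63.6% and 51.5%, and in windows later in both 98.3% and 90.7%. The rule chose members on early minus late signal and so favours these directions. Most members thus had less early signal and more late signal in induced cells. Between KO and control cells the median differences were -0.017 for early and -0.18 for late signal. In the windows later in both, early signal had a median KO minus control difference of -0.97. The KO threshold that separates these windows from the members favours that contrast.

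Early signal in member windows was also dim on the induced array. Of 3521 member probes, 77.5% were well above background in the early channel in induced cells, against 93.6% in non-induced, 96.4% in KO and 98.9% in control cells. On the induced array that share was 90.4% over all windows, 81.3% in non-member windows of like timing and 63.0% in windows later in both. Dim early signal there was thus not particular to members. In the late channel the share was 98.5% to 99.5% on the 4 arrays. Restricted to probes well above background in both channels on all arrays, 250 members could be measured. All 250 had a difference below 0, and 149 stayed at or below -0.5 on induction. The part of dim early signal in the size of the differences was not tested.

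KO minus control differences within the set were wide. A total of 152 members (47.2%) lay above 0 and 170 below it, and 78 (24.2%) lay above 0.2, against 20.0% of all windows. The rule keeps out windows at or below -0.2, and of the 6186 windows above -0.2, 2263 (36.6%) lay above 0.2. Above 0.5 lay 38 members (11.8%) and 824 (13.3%) of the 6186. Median timing of these 78 windows was -1.65 in induced, -1.002 in non-induced, -0.29 in KO and -0.84 in control cells. The 78 windows were therefore earlier in KO than in control cells by a median of 0.49, while they were later in induced than in non-induced cells. Early signal was higher in KO than in control cells by 0.37 in their median.

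The largest KO minus control difference of any member was on chromosome 8, at 116200001 to 116400000 (18 probes). Timing there was -1.35 in induced, -0.67 in non-induced, 0.50 in KO and -0.76 in control cells. The difference was 1.25 ± 0.084 between KO and control cells and -0.68 ± 0.16 between induced and non-induced cells (SE over probes). The lowest induced minus non-induced difference, -1.39 ± 0.15, was also on chromosome 8, at 7000001 to 7200000, and rests on 5 probes. Timing there was -2.22 in induced, -0.83 in non-induced, -1.50 in KO and -1.59 in control cells. A different order was seen on chromosome 11, from 110600001 to 110800000 (5 probes), where timing was -1.68 in induced, -0.54 in non-induced, 0.69 in KO and 0.85 in control cells. That window was late in both mutant cultures and early in KO and control cells.

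Member windows formed 225 clusters when windows whose starts lay at most 400 kb apart were joined. Of these, 164 held a single window, 35 held 2, 19 held 3, 5 held 4, 1 held 5 and 1 held 6. Clusters of 2 or more windows numbered 61 and held 158 members. Genes in these windows were not identified, since no annotation of the build was used.

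The cluster with the most windows lay on chromosome 1, from 13800001 to 15200000, with 6 member windows and 51 probes. Mean timing was -1.46 in induced, -0.86 in non-induced, -0.50 in KO and -0.83 in control cells. The induced minus non-induced difference was -0.60 ± 0.071 and the KO minus control difference 0.33 ± 0.085. Single windows ran from -0.86 to -0.51 on induction, and from -0.19 to 0.84 in KO cells, so the KO difference was not uniform along the cluster.

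The next cluster, on chromosome 12 from 57600001 to 58600000, held 5 adjoining windows and 95 probes, the most of the clusters named here. Timing was -1.64 in induced, -0.94 in non-induced, -0.24 in KO and -0.75 in control cells. Its differences were -0.70 ± 0.054 on induction and 0.51 ± 0.050 for KO minus control. Its 5 windows had differences of -0.88 to -0.53 on induction and of 0.11 to 0.72 for KO minus control. In the 10 flanking windows the same differences were -0.25 and -0.11.

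In other clusters the means of the KO and control arrays lay closer together. On chromosome 6, from 96000001 to 96800000 (4 windows, 72 probes), timing was -1.79 in induced, -1.12 in non-induced, -0.90 in KO and -0.89 in control cells. On chromosome 2, from 66200001 to 67200000 (4 windows, 65 probes), it was -1.69 in induced, -1.02 in non-induced, -1.11 in KO and -1.13 in control cells. The induced array was lowest at both loci, and the cluster means of the KO and control arrays differed by less than 1 SE. Single windows ran from -0.15 to 0.20 for KO minus control on chromosome 6 and from -0.20 to 0.37 on chromosome 2. Chromosome 18, from 14400001 to 15600000 (4 windows, 53 probes), had -1.74, -1.09, -0.82 and -0.85 in induced, non-induced, KO and control cells. Chromosome 10, from 29800001 to 30600000 (4 windows, 51 probes), was less late, with -1.18, -0.57, -0.40 and -0.53 in the same order. Its KO minus control difference was 0.13 ± 0.060, with single windows from -0.075 to 0.37. Chromosome 2 held another cluster, from 80800001 to 81400000 (3 windows, 19 probes), with -1.56 in induced, -0.76 in non-induced, -0.92 in KO and -0.89 in control cells.

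A cluster on chromosome 3, from 29200001 to 30000000 (4 windows, 62 probes), crossed the early side of the median. Its windows from 29600001 to 29800000 and from 29800001 to 30000000 had timing of -0.44 and -0.41 in induced cells and of 0.14 and 0.22 in non-induced cells. In KO cells they had 0.69 and 0.45, and in control cells -0.20 and -0.14. These windows were late on the induced array alone among mutant and KO arrays, while control cells were also below 0.

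Among clusters with 15 or more probes, the lowest mean difference was on chromosome 10, from 29000001 to 29200000 (1 window, 16 probes). Timing was -2.01 in induced, -1.04 in non-induced, -0.29 in KO and -0.96 in control cells. The difference was -0.98 ± 0.14 on induction and 0.67 ± 0.080 for KO minus control. Chromosome 8, from 6800001 to 7600000 (3 windows, 18 probes), had -0.93 ± 0.15 and 0.059 ± 0.063. Chromosome 5, from 41600001 to 42200000 (3 windows, 33 probes), had -0.84 ± 0.078 and -0.11 ± 0.068. Timing in induced, non-induced, KO and control cells was -1.83, -0.90, -1.31 and -1.37 on chromosome 8. On chromosome 5 it was -1.47, -0.63, -0.85 and -0.74. In both, all arrays were late, KO and control cells lay between the induced and the non-induced cells, and non-induced cells were the least late.

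The other clusters with low mean differences lay on chromosomes 2, 3, 10, 15, 16 and 17 and had means between -0.95 and -0.83 on induction. That on chromosome 17, from 10800001 to 11000000 (21 probes), had -0.87 ± 0.22, with -1.26 over its odd and -0.44 over its even probes along the chromosome. With only probes well above background in both channels on all arrays, it had -0.32 and was no longer a member. On the same probes the differences were -0.61 on chromosome 16 from 89000001 and -0.45 on chromosome 6 from 96000001. Both were over 1.5 times smaller in size than over all probes. On chromosome 8 from 6800001 only 1 of the 3 windows could be measured on such probes. That window had -0.61, which cannot be set against the mean of the 3. On chromosome 16, from 89000001 to 89200000 (17 probes), the difference was -0.95 ± 0.16, while the KO difference was -0.48 over odd and 0.15 over even probes. The KO side of the rule was therefore not settled there. On chromosome 10, from 125200001 to 125600000 (17 probes), the KO minus control difference was 0.59 ± 0.14, and its odd and even probes gave 0.49 and 0.66.

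**Figure D3:**
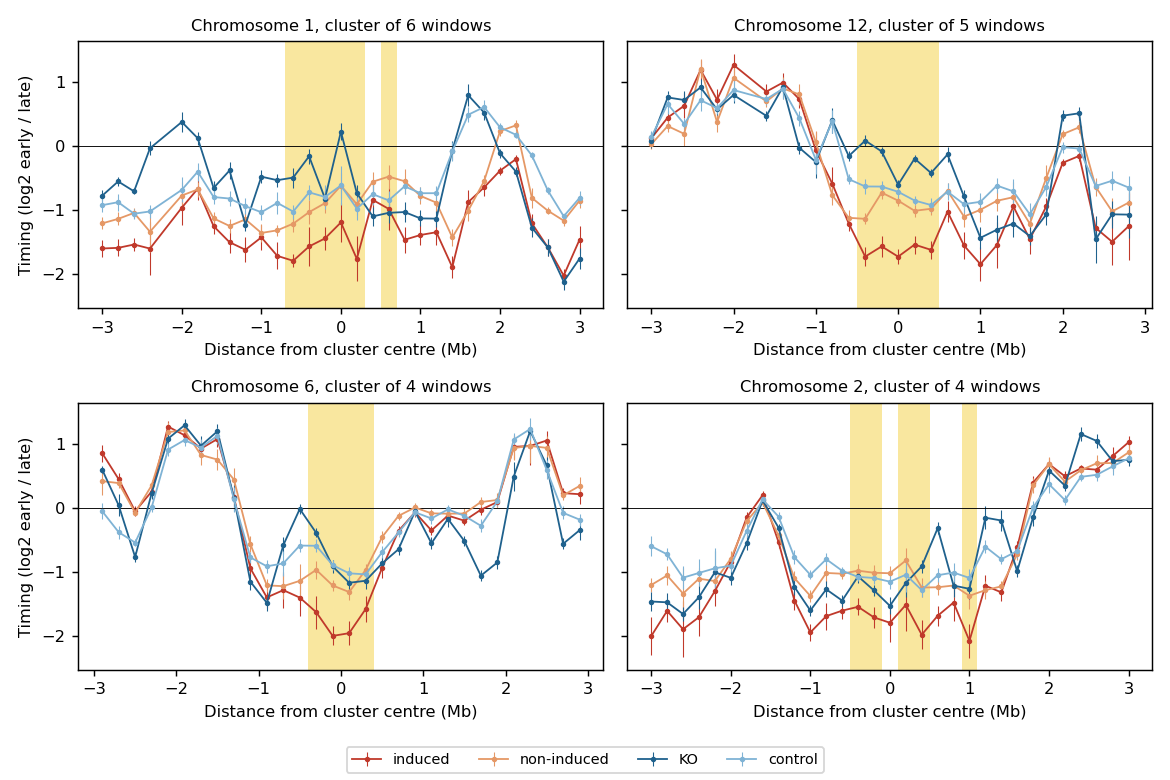
Timing (log2 early over late signal, vertical axis) on the induced, non-induced, KO and control arrays around the clusters on chromosomes 1, 12, 6 and 2 with the most member windows, with SE over probes as bars and distance from the cluster centre (Mb) on the horizontal axis. On chromosome 12 the 5 member windows are lowest in induced cells and highest in KO cells, with means of -1.64 and -0.24.

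Windows around members tended to be late as well, although 164 of the 225 clusters held a single member window. Of 600 measured windows next to a member, 154 (25.7%) were members, 138 (23.0%) were later in both comparisons and 308 (51.3%) were neither. Of all windows, early ones included, 2.84% were members and 15.9% were later in both. Of windows of like timing, members included, 1704 lay at or below -0.5 on induction (256 of them members) and 3432 lay above. No excess of windows later in both, relative to late windows, is read from these shares. Of 320 members with a measured neighbour, 120 (37.5%) adjoined a window later in both. Away from the member window, the median induced minus non-induced difference was -0.50 and -0.48 at 200 kb on either side. It was -0.34 and -0.29 at 1 Mb and -0.20 and -0.23 at 2 Mb. Non-member windows of like timing had a median of -0.34 and all windows one of -0.11, so the values at 1 Mb were usual for late windows.

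The KO minus control difference around members had another shape. Its median was -0.020 in the member window, -0.16 and -0.15 at 200 kb, and -0.23 and -0.14 at 1 Mb. The neighbours at 200 kb were thus at the median of all windows (-0.15), which was 0.034 with each array centred on its median window. Non-member windows of like timing had a lower median of -0.43, so the neighbours were not usual for late windows here. Of the neighbours, 25.7% were members themselves. That the members lay higher is fixed by their choice on this difference. Members lay a median of 1000 kb from the nearest early window, as did non-member windows of like timing (mean of KO and control timing between -1.22 and -0.27), against 1600 kb in the windows later in both. Early windows had a mean of KO and control timing at or above 0, and late domains were runs of windows with that mean below 0. The late domains that held 301 of the members had a median length of 3.6 Mb. That was 3.6 Mb for all late windows, 3.8 Mb for non-member windows of like timing and 5.6 Mb for windows later in both. The KO and control arrays enter both this mean and the KO threshold. The contrasts with windows later in both are therefore not independent of the rule.

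**Figure D4:**
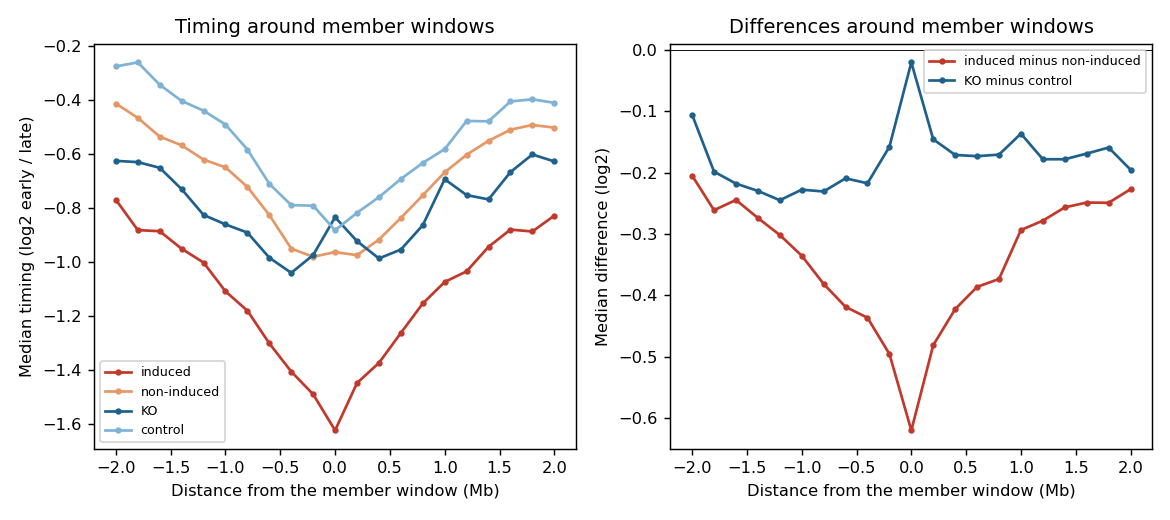
Median timing on each array (one panel, log2) and median induced minus non-induced and KO minus control differences (other panel, log2) against distance from the member window in Mb. The induction difference is deepest at 0, at -0.62, and reaches -0.20 and -0.23 at 2 Mb on either side, while the KO difference is nearest to 0 at the member window.

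Members lay on all 19 autosomes in unequal shares. Chromosome 3, the latest autosome in control cells by median timing (-0.35), held 47 members in 31 clusters. These were 6.32% of its windows and 14.6% of all members. Chromosome 18 followed by share with 20 members (4.75%), and chromosome 2 held 34 (3.96%). Chromosome 11, the earliest autosome in control cells by median timing (0.37), held 5 (0.865%). Of windows later upon induction, members made up 38.9% on chromosome 19 (7 members, 11 windows later in both). They made up 6.67% on chromosome 6 (10 members, 140 windows later in both) and 15.1% over all autosomes. The ends of chromosomes were not favoured, with 15 and 14 members within 5 Mb of the first and last window, or 4.66% and 4.35% against 3.94% and 4.07% of all windows.

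Many members were thinly sampled and close to a threshold. Members held a median of 9 probes, against 15 for all windows, and 171 (53.1%) held fewer than 10, against 28.6%. On induction, 213 members (66.1%) lay within 1 SE of -0.5, against 21.4% of all windows. In the KO comparison, 131 members (40.7%) lay within 1 SE of -0.2, against 21.7% of all windows. The induction difference was 3 or more SE in size in 229 members (71.1%). Of all windows, 1356 (12.0%) were at or below -0.5 by 3 or more SE. Just inside the induction threshold lay -0.501 at chromosome 2, 107800001 to 108000000, and just outside it -0.499 at chromosome 17, 52200001 to 52400000. Just inside the KO threshold lay -0.19999 at chromosome 12, 119600001 to 119800000, and just outside it -0.2005 at chromosome 15, 68800001 to 69000000.

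Splitting the probes gave values that did not take part in the choice. In 185 windows chosen by the same rule on odd probes, the median induction difference was -0.63 on those probes and -0.48 on the even ones. Even probes gave a difference below 0 in 182 of the windows (98.4%), and at or below -0.5 in 86 (46.5%), against 12.4% of all windows. They lay above -0.2 in the KO comparison in 129 (69.7%), against 63.0% of all windows. They met the whole rule in 57 (30.8%), against 2.46% of all windows. Chosen on even probes, 199 windows met the rule on odd probes in 57 cases (28.6%, against 2.29%). Odd and even probes share the arrays, the cultures and the domain, so this measures probe scatter and not replication of the effect.

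**Figure D5:**
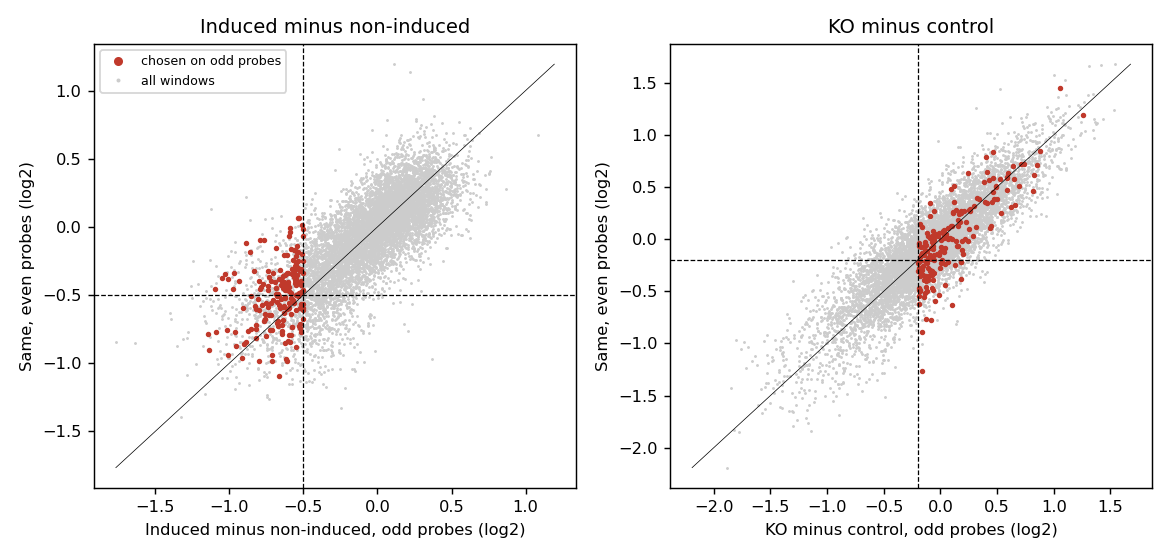
Induced minus non-induced and KO minus control differences (log2) over odd probes (horizontal axis) and even probes (vertical axis) of each window, with the windows chosen on odd probes in colour. Even probes gave a difference below 0 on induction in 182 of 185 chosen windows, with a median of -0.48.

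The spread of the arrays bears on the size of the differences. After each array was scaled to the spread of the control array, median timing of the 322 members was -1.09 in induced, -0.84 in non-induced, -0.65 in KO and -0.88 in control cells. The induction difference then had a median of -0.24 and stayed below 0 in all 322, but 8 of them remained at or below -0.5. It was at or below -0.2 in 208 members (64.6%), against 23.3% of all windows and 81.2% of windows later in both. A difference below 0 was found in 67.6% of all windows and in all 1805 windows later in both. The KO minus control difference had a median of 0.17 after scaling, against -0.020 as measured. It lay above 0 in 307 members (95.3%), against 33.8% of all windows. Since the members were chosen on these arrays by both differences, these values describe them and nothing is read from their direction.

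Scaling left 36 windows that met the rule, of which 7 were members. These 7 lay on chromosomes 5, 8, 11, 13 and 15 and held 5 to 8 probes each. The clusters on chromosomes 12 and 1 kept both signs after scaling, with -0.28 and 0.56 on chromosome 12 and -0.23 and 0.44 on chromosome 1, but none of their windows reached -0.5.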

How the data were processed

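Windows, lists and tests were chosen with earlier results of these data known. Per the file headers, Agilent Feature Extraction 11.5.1.1 made the scanner files, and the submitters' processing notes give 9.1. Coordinates (mm9) were used as the files give them. The deposited processed signals are intensity values from which background had been subtracted, with spatial trends removed and a linear dye factor applied to each channel, per the file headers. The deposited value table holds the log10 ratio of late over early signal, with no centring stated, and served as an alternative with its sign turned.

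Timing was log2 of early over late processed signal of the genomic spots, centred on the autosomal median of each array. Spots of a probe were averaged, and probes were averaged in windows of 200 kb with 5 or more probes on the 19 autosomes. Member windows had an induced minus non-induced difference at or below -0.5 and a KO minus control difference above -0.2. Members whose starts lay at most 400 kb apart formed a cluster. The clusters named were the 10 with the most member windows and the 10 with the lowest mean difference among those with 15 or more probes. Windows given as highest, lowest, above 0 or kept after scaling were picked after their values were seen.

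With 1 array per group no test was made. Standard errors are over probes within a window or cluster. The number of arrays limits the precision. Window calling was first tested on simulated data. Alternatives changed background correction, loess, scale, quantiles, centring, trend, flagged and dim spots, the ratio's source, window size, probe number, probe order, thresholds and spot averaging. Genes were not placed, since the gene table given uses a different build, and the planned gene classes were not analysed here. Python 3.11.15, numpy 2.4.6, pandas 2.3.3, matplotlib 3.10.9, R 4.3.3 and limma 3.58.1 were used.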

Additional observations from a re-analysis of the deposited data

How the results depend on the processing

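Counts of member windows and clusters depended on the signal used, scale and centring, and the cause was not tested where no construction shows it. With normexp (offset 50) 40 windows in 37 clusters met the rule. This setting also replaced the detrended, dye-scaled signals by median spot signals, so more than the background correction changed. The 322 members then had medians of -0.31 on induction, -1.02 in induced and -0.72 in control cells. Scaling to the control spread gave 36 windows in 31 clusters and medians of -0.24 on induction, 0.17 for KO minus control and -1.09 in induced cells. Quantile normalization gave 65 in 58, with -0.17, 0.42, -1.28 in induced and -1.21 in control cells. Centring on the median window gave 190 in 147, with -0.42, 0.16, -1.22 and -0.75. Removing the linear trend gave 81 in 72, with -0.17 and 0.38. Scaling and centring together, chosen after seeing the data, gave 28 in 25, with -0.14, 0.28, -0.82 and -0.75.

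By construction, other thresholds and a higher minimum of probes changed the count. Leaving out probes or changing the window size also changed the values, so those counts did not fall through fewer windows alone. Probes well above background gave 200 windows (2.02% of 9889, against 2.84% as reported). Of the 250 members measured on them, 149 stayed at or below -0.5 on induction. Windows of 400 kb gave 127 (2.15%) in 108 clusters, and 10 or more probes gave 151 in 113. Odd probes gave 192 in 149 and even probes 210. On odd probes 118 of 158 measured members stayed at or below -0.5, and on even probes 117 of 157. An induction threshold of -0.4 gave 541 windows, and -0.7 gave 101 in 85 with a median of -0.79. A KO threshold of -0.1 gave 209 with a median of 0.10, and 0 gave 152 in 110 with a median of 0.21. Loess gave 243 windows (173 of them members), and leaving out flagged spots or using the value table gave 324 each. Windows of 100 kb gave 421, a difference of 3 SE 229, and the mean over spots, also chosen after seeing the data, 323. The median induction difference stayed below 0 under every alternative run, which the choice of members on this difference favours. For 100 kb and 400 kb windows, other thresholds and 3 SE, it was taken over windows chosen anew. There it could not lie above 0. Of the 322, 316 were below 0 with normexp, 314 with quantiles, 305 without the trend and 310 with scaling and centring together. Centring on the median window moved the median of all windows to 0.088 on induction, against -0.11 as reported, and to 0.034 for KO minus control, against -0.15. No paired analysis was possible because each group has 1 array, and no array could be left out. Gene classes were not run. In the early channel of the induced array 77.5% of member probes were well above background, against 90.4% over all windows and 63.0% in windows later in both. The median induction difference of members was -0.53 without the dim probes.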

Other observations

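On the X chromosome, which the rule leaves out, 59 of 687 windows met the same thresholds, and 244 lay at or below -0.5 on induction. Median timing of the 59 was -1.54 in induced, -0.85 in non-induced, -0.87 in KO and -0.94 in control cells. Their differences had medians of -0.62 on induction and -0.0025 for KO minus control.

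The opposite pattern on the autosomes was rarer in one comparison and more frequent in the other. An induced minus non-induced difference at or above 0.5 was found in 77 windows (0.68%), and 71 of these had a KO minus control difference below 0.2. A KO minus control difference at or below -0.5 was found in 2608 windows, and 540 of these had an induction difference above -0.2.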
